A study of Rattus norvegicus with 99 samples.

Results

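The 9 genes Gdf15, Fgf21, Il6, Il33, Il1rl1, Ccl2, Lif, Inhba and Mstn encode secreted factors, or in the case of Il1rl1 a receptor, that are studied as stress signals of the heart. They were taken by gene symbol from the table of 17337 genes of rat whole-heart tissue, and all 9 were in it. RNA-seq was done on 99 libraries, 1 for each of 3 chambers of 33 animals: left ventricle (LV), septum (Spt) and right ventricle (RV). All animals were male F1 rats of Wistar Kyoto mothers and Lewis fathers, and all had surgery, either banding of the aorta (AOB, pressure load on the LV), banding of the pulmonary artery (PAB, pressure load on the RV) or a sham operation. At the compensated stage (H), at 11 weeks of age and 7 weeks after surgery, there were 7 animals each of Sham-H, AOB-H and PAB-H. At the failing stage (F) there were 4 AOB-F and 3 Sham-LF animals at 30 weeks of age and 24 weeks after surgery, and 3 PAB-F and 2 Sham-RF animals at 27 weeks of age and 21 weeks after surgery. Each animal gave 1 library per chamber, so p-values within a chamber measure the spread between animals, and the failing groups rest on few of them. Comparisons between chambers, or between their responses, treated the 3 libraries of an animal as separate. Their p-values leave out this pairing and do not measure the spread between animals alone.

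Growth differentiation factor 15 (Gdf15) and fibroblast growth factor 21 (Fgf21) are hormone-like proteins that many tissues release under cellular stress, in part through the transcription factor ATF4 of the integrated stress response. Interleukin 6 (Il6) and leukaemia inhibitory factor (Lif) signal through the shared receptor gp130 to STAT3, and activin A (a dimer of the Inhba product) and myostatin (Mstn) signal through activin type II receptors to SMAD2 and SMAD3. Interleukin 33 (Il33) is an alarmin kept in the nucleus of stromal and endothelial cells, the Il1rl1 product ST2 is its receptor, which also exists in a soluble form that binds Il33 as a decoy, and Ccl2 is the chemokine that draws monocytes through the receptor Ccr2. A gene count does not separate the membrane and soluble forms of ST2.

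The stretches upstream of the start sites are shown for Gdf15, Fgf21 and Il6, since the stress signals above are known to act on these genes. The sequences are from RefSeq on the assembly GRCr8, which is not the build the counts were made on. The extract of RefSeq used here held them for 6 of the 9 members. Each runs from 250 bases before the transcript's start to the last base before it. Capitals mark matches, on either strand, to any of 4 motifs. The composite element bound by ATF4 was searched as TGATGNAA and a letter pattern of NF-kappaB sites as GGNNTTTCC. The AP-1 site was searched as TGANTCA, and the search for the TATA box used the letters TATAAA. Gdf15 has 2 starts in the table.
Fgf21, minus strand, chr1:105221377-105221626: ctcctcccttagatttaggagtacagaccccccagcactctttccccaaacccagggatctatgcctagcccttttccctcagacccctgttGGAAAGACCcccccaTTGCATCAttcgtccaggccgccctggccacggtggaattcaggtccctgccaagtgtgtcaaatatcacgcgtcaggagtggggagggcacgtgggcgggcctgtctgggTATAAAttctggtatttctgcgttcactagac
Il6, minus strand, chr4:5894576-5894825: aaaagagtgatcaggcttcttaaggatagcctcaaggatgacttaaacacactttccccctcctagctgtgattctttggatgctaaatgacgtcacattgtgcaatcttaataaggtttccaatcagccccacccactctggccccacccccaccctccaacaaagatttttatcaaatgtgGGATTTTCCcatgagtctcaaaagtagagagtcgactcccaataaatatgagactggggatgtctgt
Gdf15, plus strand, upstream start, chr16:18838186-18838435: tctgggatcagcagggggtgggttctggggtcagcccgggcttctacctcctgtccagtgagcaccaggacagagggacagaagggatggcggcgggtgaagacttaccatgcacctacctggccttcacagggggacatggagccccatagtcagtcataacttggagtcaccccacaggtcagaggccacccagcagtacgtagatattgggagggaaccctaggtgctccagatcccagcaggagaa
Gdf15, plus strand, downstream start, chr16:18839015-18839264: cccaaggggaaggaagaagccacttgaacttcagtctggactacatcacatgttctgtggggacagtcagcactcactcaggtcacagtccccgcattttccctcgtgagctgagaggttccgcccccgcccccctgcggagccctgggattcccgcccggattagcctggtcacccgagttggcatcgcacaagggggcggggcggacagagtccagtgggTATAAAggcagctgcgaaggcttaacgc
Fgf21 had 1 match to the ATF4 element, 1 to the NF-kappaB pattern and a TATA box. Il6 had 1 match to the NF-kappaB pattern. Gdf15 had the TATA box at its downstream start and no other of these letters in either window. Of 33469 rat promoter windows of this length, 3.4% held the ATF4 element, 6.34% the AP-1 site, 5.19% the NF-kappaB pattern and 12.9% the TATA box, so a match is a description of these letters and not a site of binding.

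The total count per library ran from 12.1 M to 24.2 M reads, with a median of 17.4 M. Over 50 genes that differ between LV and RV, 3 animals (Sham-H replicate 6, PAB-H replicate 2 and AOB-H replicate 1) showed the LV to RV difference in the direction opposite to their labels. Their labels were kept. Some of the results that rest on their LV or RV libraries are also given without them, and the others only with them. Levels below are CPM (counts scaled to a common library size by TMM) as mean ± SD over animals, and differences are on the log2 scale of the edgeR quasi-likelihood test with their standard error (SE). A comparison called a gene when its Benjamini-Hochberg adjusted p over all genes tested was under 0.05. As each library was bulk tissue, a change in the number of cells of a type and a change in RNA per cell cannot be told apart.

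The 9 members spanned a wide range of abundance. On the length-scaled FPKM of the deposited table, the median over the 99 libraries was 12.3 for Il33, 6.02 for Ccl2, 1.40 for Gdf15 and 1.03 for Inhba. The median FPKM was 0.488 for Fgf21, 0.347 for Il1rl1, 0.195 for Mstn and 0.0927 for Lif, and Il6 had a median of 0 and a highest value of 0.288. The plot of FPKM by member shows that Il33 and Ccl2 stood above the other members in most libraries.

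Because several members were near the limit of detection, the number of reads behind each value matters. A floor was set at 3 counts, which is 0.117 CPM in the deepest library and 0.264 CPM in the shallowest. Gdf15, Il33, Ccl2 and Inhba were above this floor in all 99 libraries, and Il1rl1 in 98. Il33 had at least 235 counts per library, Ccl2 35 to 208, Inhba 10 to 68, Gdf15 7 to 162 and Il1rl1 3 to 58. Fgf21 had 0 to 13 counts and was above the floor in 81 libraries, and Mstn had 0 to 15 counts and was above it in 54. Il6 had 0 to 5 counts, with at least 1 count in 47 libraries and more than 3 in 3 of them. Lif had 0 to 4 counts, with at least 1 in 65 libraries and more than 3 in 1. Il6 was at or under the floor in every library of 18 of the 21 groups and Lif in 20, so both lacked the reads for the test across genes. Mstn passed the filter on low counts only in the RV and in the fit over all chambers, that is in 11 of the 22 comparisons made, and the other 6 members passed it in all 22.

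Gdf15 had the widest range of group means of the members above the floor. Its group means ran from 0.752 ± 0.20 CPM (SD, n = 7) in the PAB-H LV to 7.12 ± 4.19 CPM (n = 4) in the AOB-F LV, a 9.47-fold range.

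In the LV of the 3 Sham-LF animals, Gdf15 was at 1.5, 1.94 and 1.89 CPM (27, 28 and 32 counts). In the LV of the 4 AOB-F animals it was at 12.4, 5.18, 2.66 and 8.26 CPM (162, 85, 43 and 120 counts). All 4 failing animals were above all 3 shams, although the lowest of them was close to the sham range. The ratio of the means was 4.01, and edgeR gave a log2 difference of 2.00 ± 0.49 (SE), with an adjusted p of 0.0439. This was the only member called in any of the 22 comparisons by edgeR, and 0.837% of the 11703 genes tested were called in this one. The call depended on single animals: without AOB-F replicate 1 the difference was 1.59 and the adjusted p 0.309, without AOB-F replicate 4 the adjusted p was 0.209, and leaving out a sham animal gave adjusted p values of 0.161 to 0.231. The difference itself stayed between 1.59 and 2.27 over the 15 alternatives run for it.

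In the septum of the Sham-LF animals, Gdf15 was at 2.74, 2.11 and 1.36 CPM. In the septum of the AOB-F animals it was at 9.11, 4.62, 8.32 and 5.06 CPM. Again all 4 failing animals were above all 3 shams. On the log2 scale the difference was 1.68 ± 0.42, with an unadjusted p of 0.000387 and an adjusted p of 0.0749, so it was not called, in a comparison where 0.232% of genes were called and 12.2% had an unadjusted p under 0.05. With DESeq2 the adjusted p was 0.0169, and without AOB-F replicate 2 or 4 it was 0.0385 or 0.0268. The difference was called in only 4 of the 15 alternatives, and the adjusted p reached 0.378. Its size stayed between 1.44 and 1.98.

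In the RV of the same animals the groups overlapped. Sham-LF was at 1.37, 1.73 and 0.856 CPM, and AOB-F at 5.22, 0.981, 1.62 and 6.28 CPM. AOB-F replicates 1 and 4 were high, and replicates 2 and 3 were within the range of the shams. AOB-F exceeded Sham-LF by 1.43 ± 0.54 on the log2 scale, with an unadjusted p of 0.0135 (12.9% of genes had one under 0.05) and an adjusted p of 0.347, and 0% of genes were called in this comparison. The difference between the LV and the RV response was 0.57 ± 0.71 (unadjusted p = 0.429), so the response of the loaded chamber was not shown to differ from that of the opposite one, and 0% of genes were called for that difference.

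At the failing stage of pulmonary artery banding, Gdf15 was not called in any chamber, and its largest difference was in the RV, the chamber under load. In the RV, the 2 Sham-RF animals were at 1.40 and 0.958 CPM and the 3 PAB-F animals at 1.47, 4.86 and 4.06 CPM. All 3 were above both shams, replicate 1 only just. PAB-F exceeded Sham-RF by 1.56 ± 0.66 on the log2 scale, with an unadjusted p of 0.024 (8.37% of genes had one under 0.05) and an adjusted p of 0.545, and 0% of genes were called. In the LV of these animals, Sham-RF was at 1.32 and 1.56 CPM and PAB-F at 1.00, 1.12 and 2.24 CPM, a log2 difference of 0.02 ± 0.60. In the septum, Sham-RF was at 1.36 and 1.88 CPM and PAB-F at 2.21, 2.33 and 3.49 CPM, and the log2 difference was 0.74 ± 0.53 (unadjusted p = 0.178). The RV response exceeded the LV response by 1.55 ± 0.88 on the log2 scale (unadjusted p = 0.08), where 0% of genes were called.

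**Figure D1:**
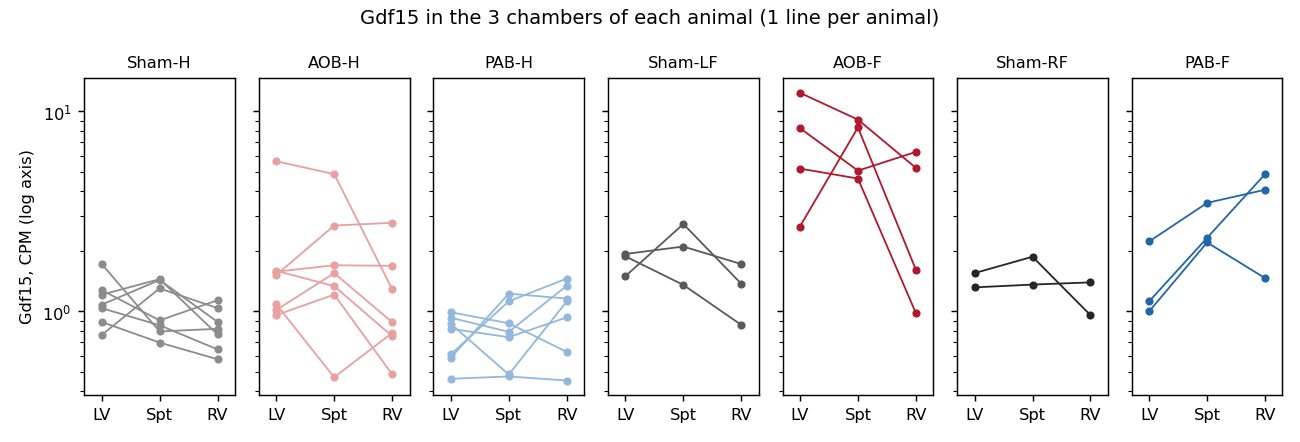
Gdf15 (CPM, log axis) in the 3 chambers of each animal, joined by a line, by condition. All 4 AOB-F animals were above all 3 Sham-LF animals in LV and Spt, and replicates 1 and 4 also in the RV, and AOB-H replicate 3 was high in LV and Spt.

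At the compensated stage the Gdf15 level overlapped between banded and sham animals in every chamber. The Sham-H LV ran from 0.763 to 1.73 CPM with a median of 1.08, and the AOB-H LV from 0.959 to 5.64 CPM with a median of 1.52. The highest value was that of AOB-H replicate 3, and the next was 1.60 CPM. The log2 difference was 0.74 ± 0.35 (unadjusted p = 0.0433, adjusted p = 0.956), in a comparison where 4.54% of genes had an unadjusted p under 0.05 and 0% were called. Without AOB-H replicate 3 it was 0.17 ± 0.28 (unadjusted p = 0.543), and without the 3 animals that went against their chamber labels it was 0.70 ± 0.39. The summed level of 3 atrial markers (Myl7, Myl4 and Sln) ran from 19.6 to 1720 CPM in the Sham-H LV and from 7.34 to 58.1 CPM in the AOB-H LV, and its part in the Gdf15 values was not tested.

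The same animal was the highest in the AOB-H septum, at 4.86 CPM. There the AOB-H range was 0.468 to 4.86 CPM with a median of 1.56, the Sham-H range was 0.699 to 1.45 CPM with a median of 0.902, and 4 of 7 banded animals were above all shams. AOB-H exceeded Sham-H by 0.95 ± 0.33 (unadjusted p = 0.00658, adjusted p = 0.232) with 15.9% of genes under an unadjusted p of 0.05 and 0% called, and it was 0.54 ± 0.29 without that animal. In the AOB-H RV the difference was 0.54 ± 0.39, and 0.26 ± 0.41 without the 3 animals, with 0% of genes called.

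No difference in Gdf15 between PAB-H and Sham-H was called. On the log2 scale the differences were -0.61 ± 0.38 in the LV, -0.33 ± 0.36 in the septum and 0.26 ± 0.40 in the RV, the chamber under load. The share of genes called was 0% in each of these 3 comparisons, and the RV difference was 0.20 ± 0.41 without the 3 animals. The change from the compensated to the failing stage was tested as an interaction. For AOB in the LV the failing-stage difference exceeded the compensated one by 1.26 ± 0.59 (unadjusted p = 0.0421, adjusted p = 0.638), in a test where 7.6% of genes had an unadjusted p under 0.05 and 0% were called. This value was 1.82 ± 0.45 without AOB-H replicate 3 and 1.29 ± 0.63 without the 3 animals that went against their chamber labels. For PAB in the RV it was 1.30 ± 0.76 (unadjusted p = 0.0975), with 0% of genes called.

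Other gene groups that are known to accompany these signals were counted in the same fits. Of 15 genes of the integrated stress response, 14 were tested in the AOB-F LV, where none passed the test with edgeR and none had an unadjusted p under 0.05. The lowest p values there belonged to Ddit4, an inhibitor of mTORC1, at 0.45 ± 0.24 and the asparagine synthetase Asns at 0.44 ± 0.24. The median of the 14 was 0.16, against 0.01 over all genes tested. In the AOB-F septum 2 of 14 had an unadjusted p under 0.05 and were higher, against 12.2% of all genes. Chac1, which degrades glutathione, was 1 of them at 1.32 ± 0.60. In the AOB-F RV Sesn2, a sestrin, was higher at 0.53 ± 0.18 (unadjusted p = 0.00583). None of these genes was called. The median over the 6 members tested in the AOB-F LV was 0.15.

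Gdf15 acts on a brainstem receptor, Gfral, with the co-receptor Ret. Gfral was at 0 in all 21 groups. The 3 genes whose level followed Gdf15 most closely over the 99 libraries, by Pearson's r of log2 CPM, were Rnd1 (a small GTPase), with r = 0.90, Hs3st2 (a heparan sulfate sulfotransferase), with r = 0.89, and Dupd1 (a phosphatase), also 0.89. After removing the group means the values were 0.78, 0.79 and 0.71. These correlations share libraries and depth and are given as a description.

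Markers of other cell types moved in the same comparison. The 6 macrophage markers (Cd68, Cd163, Mrc1, Csf1r, C1qa and C1qb) had summed levels of 365 to 450 CPM in the Sham-LF LV and 426 to 711 CPM in the AOB-F LV, and all 6 were higher. Before adjustment 5 of the 6 had p under 0.05, against 12.7% of all genes, and none was called. Csf1r, the receptor for colony stimulating factor 1, was higher by 0.53 ± 0.17 (unadjusted p = 0.00359, adjusted p = 0.121). The 6 fibroblast markers (Col1a1, Col1a2, Pdgfra, Dcn, Tcf21 and Lum) summed to 1901 to 2053 CPM in the Sham-LF LV and 2238 to 2604 CPM in the AOB-F LV, which did not overlap, while the macrophage sums did. Of the 5 fibroblast markers tested, 3 were higher, and Col1a1, a collagen chain, was higher by 0.88 ± 0.26 (unadjusted p = 0.00233) but not called. The 6 cardiomyocyte markers (Myh6, Tnnt2, Tnni3, Actn2, Ryr2 and Myl2) summed to 48705 to 61548 CPM in Sham-LF and 32755 to 47129 CPM in AOB-F. Myh6, the alpha myosin heavy chain, differed by -1.02 ± 0.30 (adjusted p = 0.0872). It is the only gene of this list given singly, was named after its values were seen, and does not stand for the others. In the septum the macrophage sums were 229 to 304 CPM in Sham-LF and 284 to 437 CPM in AOB-F. In the RV they were 283 to 387 and 279 to 455 CPM. The fibroblast sums overlapped in the septum, at 1321 to 1638 CPM in Sham-LF and 1245 to 1703 CPM in AOB-F. They also overlapped in the RV, at 1464 to 2033 and 1390 to 1962 CPM. The fibroblast sums of the Sham-RF LV, 2213 and 2287 CPM, overlapped the AOB-F LV range. Col1a2 was at 0 in the Sham-LF septum, and no other marker of these lists was at 0 in AOB-F or Sham-LF. It was also at 0 in the LV and septum of Sham-RF and in the PAB-F septum. The fibroblast sums of these groups therefore rest on the other 5 markers, and the reason for the missing counts was not tested. The part of these markers in the differences of Gdf15 and Inhba was not tested. In the AOB-H septum, all 6 macrophage markers were higher as well, with Cd163 at 0.55 ± 0.15, and none was called. There 5 of the 6 were below 0.05 before adjustment, against 15.9% of all genes.

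Of the other inflammatory cytokines, 6 were tested in the AOB-F LV, 5 were higher and none was called, with a median of 0.35. The macrophage growth factor Csf1 was higher by 0.50 ± 0.15 (adjusted p = 0.1) and osteopontin, encoded by Spp1, by 2.56 ± 0.89 (adjusted p = 0.162). In the PAB-F RV, Spp1 was higher by 3.68 ± 1.64 (unadjusted p = 0.0328) and was not called. The chemokines other than Ccl2 went both ways in the AOB-F LV, where 9 of 15 were higher and none was called. Cxcl16, a membrane-bound chemokine, was higher by 0.60 ± 0.21 (unadjusted p = 0.00749), and Ccl5, which attracts T cells, differed by -0.63 ± 0.30. Of 12 immediate early genes, none had an unadjusted p under 0.05 in the AOB-F LV. In the PAB-F RV, Zfp36, which destabilises cytokine mRNA, was at -1.14 ± 0.27. There 6 of the 12 immediate early genes were lower with an unadjusted p under 0.05, against 8.37% of all genes, and none was called. Their summed level was 928 and 1497 CPM in the 2 Sham-RF libraries and 616 to 769 CPM in PAB-F, and its part in the RV values of the members was not tested.

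Fgf21, a hormone known mainly from liver, was measured on few reads in the same libraries. In the AOB-F LV it was at 0.536, 0.061, 0.495 and 0.138 CPM (7, 1, 8 and 2 counts), and in the Sham-LF LV at 0.333, 0.346 and 0.472 CPM (6, 5 and 8 counts). The groups overlapped. Group means of Fgf21 ran from 0.22 ± 0.0497 CPM in the AOB-H LV to 0.688 ± 0.38 CPM in the Sham-RF RV, and the second of these rested on 13 and 7 counts.

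No Fgf21 difference had an unadjusted p under 0.05 in any of the 22 comparisons. The lowest p among the failing groups was in the AOB-F septum, where the log2 difference was -0.90 ± 0.51 (unadjusted p = 0.0857). In the AOB-H LV it was -0.68 ± 0.41, in the PAB-F LV 0.70 ± 0.63 and in the PAB-F RV -0.77 ± 0.59. In the failing groups the standard errors were 0.51 to 0.64, so a difference of 1 on the log2 scale was too small for the test to call. The septal difference of -0.90 ± 0.51 had an adjusted p of 0.499. Whether Fgf21 and Gdf15 differed in their response was not tested. The gene nearest to Fgf21 over the 99 libraries was Ccdc125, with r = 0.49.

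Inhba, which encodes the subunit of activin A, was the other member with a large difference in the AOB-F LV. In the Sham-LF LV it was at 1.11, 1.04 and 0.943 CPM (20, 15 and 16 counts). In the AOB-F LV it was at 3.14, 2.07, 1.55 and 3.44 CPM (41, 34, 25 and 50 counts). All 4 failing animals were above all 3 shams, and replicates 1 and 4, the highest for Gdf15, were again the highest. AOB-F exceeded Sham-LF by 1.29 ± 0.34 on the log2 scale (unadjusted p = 0.000632, adjusted p = 0.0605) and the ratio of the means 2.47, and 12.7% of genes in this comparison had an unadjusted p under 0.05. It was called in 4 of the 15 alternatives, among them DESeq2 with an adjusted p of 0.0283, and was between 1.11 and 1.47 in all of them.

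The Sham-RF LV, at 1.93 and 1.79 CPM, was above all 3 Sham-LF libraries and within the AOB-F range, so the 2 older sham groups did not overlap in Inhba. In the AOB-F septum Inhba was at 4.02, 2.59, 3.69 and 2.53 CPM and in the Sham-LF septum at 2.99, 1.67 and 2.71 CPM, which overlapped. In the RV, AOB-F was at 2.64, 1.70, 2.28 and 2.2 CPM and Sham-LF at 1.30, 2.38 and 1.31 CPM. The LV response exceeded the RV response by 0.87 ± 0.54 (unadjusted p = 0.112). At the compensated stage the AOB-H LV ran from 0.737 to 2.47 CPM with a median of 1.34, against 0.578 to 1.83 CPM with a median of 0.866 in Sham-H, and the difference was 0.58 ± 0.24 (unadjusted p = 0.0202, adjusted p = 0.956). Without the 3 animals it was 0.83 ± 0.24 (unadjusted p = 0.0015).

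The level of Inhba also differed between chambers of animals with no banding. In Sham-H, the septum was at 2.12 ± 1.34 CPM, the RV at 1.31 ± 0.282 CPM and the LV at 0.959 ± 0.411 CPM (n = 7 each). The septal mean contained 1 library at 5.03 CPM, and the next was 2.13 CPM. The septum exceeded the LV by 1.10 ± 0.27 on the log2 scale (unadjusted p = 0.000102, adjusted p = 0.0809) in a comparison where 0.0923% of genes were called and 7.18% had an unadjusted p under 0.05. Without the 3 animals the difference was 1.45 ± 0.29, with an adjusted p of 0.0103. The septum exceeded the RV by 0.67 ± 0.26 (unadjusted p = 0.0129, adjusted p = 0.334), where 0.772% of genes were called and 8.91% had an unadjusted p under 0.05. Within animals, Inhba was higher in the septum than in the LV in 26 of all 33 and in 6 of the 7 Sham-H animals.

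Of the extracellular inhibitors of activin and myostatin, 4 could be tested in the AOB-F LV and all 4 were higher, with a median of 0.27. None was called. Fstl3, a follistatin-like protein that binds activin, was higher by 0.92 ± 0.36 in the LV (unadjusted p = 0.0155, adjusted p = 0.232), by 1.09 ± 0.40 in the septum and by 1.10 ± 0.46 in the RV of AOB-F. The type II receptor Acvr2b was higher by 0.46 ± 0.34 in the AOB-F LV, which was not called, and differed by -1.07 ± 0.48 in the PAB-F RV. Of the other TGF-beta family ligands, 11 were tested in the AOB-F LV and 1 was called. This was Tgfb2, transforming growth factor beta 2, which rose by 1.94 ± 0.38 in the LV (adjusted p = 0.0292) and by 1.45 ± 0.33 in the septum (adjusted p = 0.0483). In the PAB-F RV, Tgfb2 was higher by 1.54 ± 0.60 (unadjusted p = 0.0154) and was not called.

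Mstn, the activin-class ligand that limits skeletal muscle growth, was at the edge of detection. In the AOB-F LV it had 4, 2, 0 and 4 counts and in the Sham-LF LV 4, 1 and 12 counts. Its highest group mean was 0.381 ± 0.282 CPM in the Sham-H RV, where single libraries ran from 0 to 15 counts. In the RV, where it could be tested, the log2 differences from sham were 0.63 ± 0.90 in AOB-F, 0.53 ± 1.06 in PAB-F, -0.49 ± 0.54 in AOB-H and -0.58 ± 0.54 in PAB-H. None passed the test, and the standard errors of 0.90 and 1.06 in the failing groups mean that a doubling was not detectable there. At the H stage the median Mstn level in the RV was 0.0649 CPM in the libraries of the first of 3 series of library numbers and 0.338 and 0.367 CPM in the others. The role of the series in these values was not tested.

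For Il6 and Lif the counts themselves are the result. Il6 had 3, 1 and 3 counts in the LV of Sham-LF and 4, 0, 1 and 1 in that of AOB-F. In the septum it had 0 counts in all 7 Sham-H libraries, a total of 0 that allows up to 3 counts, and 5 and 3 in the Sham-RF libraries. Thus the highest Il6 count of the series, 5, was in a Sham-RF septum library. In CPM the highest was an AOB-F LV library, at 0.306 CPM (4 counts), against 0.296 CPM in that sham library. In the LV and in the septum 4 of the 5 older shams were above all 7 Sham-H libraries in CPM, and in the RV 0 of 5. With the filter on low counts removed, edgeR gave Il6 an unadjusted p of 0.0194 in the LV (adjusted p = 0.7) and 0.00113 in the septum (adjusted p = 0.115) for the older shams, from counts of at most 5. Lif had 2, 1, 1 and 1 counts in the AOB-F LV and 2, 2 and 1 in the Sham-LF LV, and its highest count, 4, was in the LV of a PAB-F animal whose group also held counts of 2 and 0.

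Exact two-sided permutation tests of the CPM were made for Il6 and Lif in the 12 comparisons of banded against sham animals and for Mstn in the 8 in LV and septum, 32 in all. None had an adjusted p under 0.05, and 1 had an unadjusted one, for Lif in the AOB-F RV, where each of 4 libraries had 1 count and the shams had 0, 0 and 1. Its exact p of 0.0286 was the smallest that 4 against 3 animals can give, and the lowest adjusted p of the 32 was 0.883. With 3 against 2 animals no exact p could fall below 0.1.

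The signal-transducing receptor of both cytokines was well detected. Il6st, which encodes gp130, was at 232 ± 15.6 CPM in the Sham-LF LV and 238 ± 18.2 CPM in the AOB-F LV. Of the 10 receptor genes tested there, none was called and none had an unadjusted p under 0.05, and the median was 0.06. In the AOB-H septum, 5 of 10 had an unadjusted p under 0.05 and were higher, Il6st by 0.14 ± 0.06, and none was called. Of all genes in that comparison, 15.9% had an unadjusted p under 0.05. Of the other gp130 cytokines and response genes, 11 were tested in the AOB-F LV. Timp1, an inhibitor of matrix metalloproteinases that gp130 cytokines induce, was higher by 0.95 ± 0.31 (unadjusted p = 0.0047, adjusted p = 0.135), and none of the 11 was called. In the AOB-H septum, Socs3, the feedback inhibitor of gp130 signalling, was higher by 0.58 ± 0.20 (unadjusted p = 0.00647).

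Ccl2 had an unadjusted p under 0.05 in the 3 comparisons of older with younger shams and in none of the comparisons of banded with sham animals. In the LV it ran from 2.25 to 5.83 CPM in the 7 Sham-H animals, with a median of 3.88. In the older shams it was at 6.95, 8.31 and 7.96 CPM in Sham-LF and at 10.6 and 6.97 CPM in Sham-RF. All 5 older shams were above all 7 younger ones. The log2 difference was 1.08 ± 0.27 (unadjusted p = 0.000419, adjusted p = 0.232), in a comparison where 0.0171% of genes were called and 6.99% had an unadjusted p under 0.05. Without the 3 animals it was 1.11 ± 0.29, and within the series of library numbers shared by young and old LV libraries it was 1.11 ± 0.33.

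The RV showed the same order. Sham-H ran from 2.37 to 5.75 CPM with a median of 2.99, and the older shams from 5.99 to 8.96 CPM, so that all 5 were above all 7. The log2 difference was 0.92 ± 0.33 (unadjusted p = 0.00872, adjusted p = 0.318), with 0.0852% of genes called and 11% under an unadjusted p of 0.05. In the septum, 6.31 ± 1.44 CPM (n = 5) in the older shams compared with 4.06 ± 1.86 CPM (n = 7), 4 of 5 were above all younger ones, and the difference was 0.66 ± 0.26 (unadjusted p = 0.0147, adjusted p = 0.205), with 0.103% of genes called and 16.8% under an unadjusted p of 0.05. The 3 age comparisons share no library, but they share animals. Age, the time since surgery and, in each chamber, the series of library numbers moved together in part, and their parts were not tested.

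Against their own shams, no banded group was called for Ccl2. In the AOB-F LV it was at 13.0, 5.97, 8.47 and 11.7 CPM, which overlapped the 6.95 to 8.31 CPM of Sham-LF, and the log2 difference was 0.33 ± 0.35. In the PAB-F RV it was at 5.24, 11.3 and 8.99 CPM and in Sham-RF at 6.99 and 5.99 CPM. The 3 genes nearest to Ccl2 over the 99 libraries were led by Ccl7, another monocyte chemokine, with r = 0.89 (0.82 after removing group means). Ccl7 itself was higher in the older shams by 1.14 ± 0.30 in the LV (unadjusted p = 0.000574) and by 1.12 ± 0.31 in the RV (unadjusted p = 0.00113).

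Of 15 other chemokines, all 15 were higher in the older LV shams, with a median of 0.37 against -0.01 over all genes. Before adjustment 5 fell below 0.05, against 6.99% of all genes, and none after it. The neutrophil attractant Cxcl1 was among them, at 0.81 ± 0.28. The immediate early genes, which cells switch on within minutes of a stimulus, were counted in the same comparison. Of the 12, 6 were higher with an unadjusted p under 0.05, with Egr1 at 1.33 ± 0.46. Their sum in the LV was 1069 and 1311 CPM in Sham-RF. In Sham-LF the sum was 696 to 786 CPM, within the 586 to 926 CPM of Sham-H. Ddit4 differed by -0.82 ± 0.19, and all 3 atrial markers were lower in the older LV shams with an unadjusted p under 0.05. In the RV, the sum of the immediate early genes was 928 and 1497 CPM in Sham-RF. In Sham-LF it was 654 to 705 CPM, against 546 to 820 CPM in Sham-H. The part of these markers in the Ccl2 difference was not tested.

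**Figure D2:**
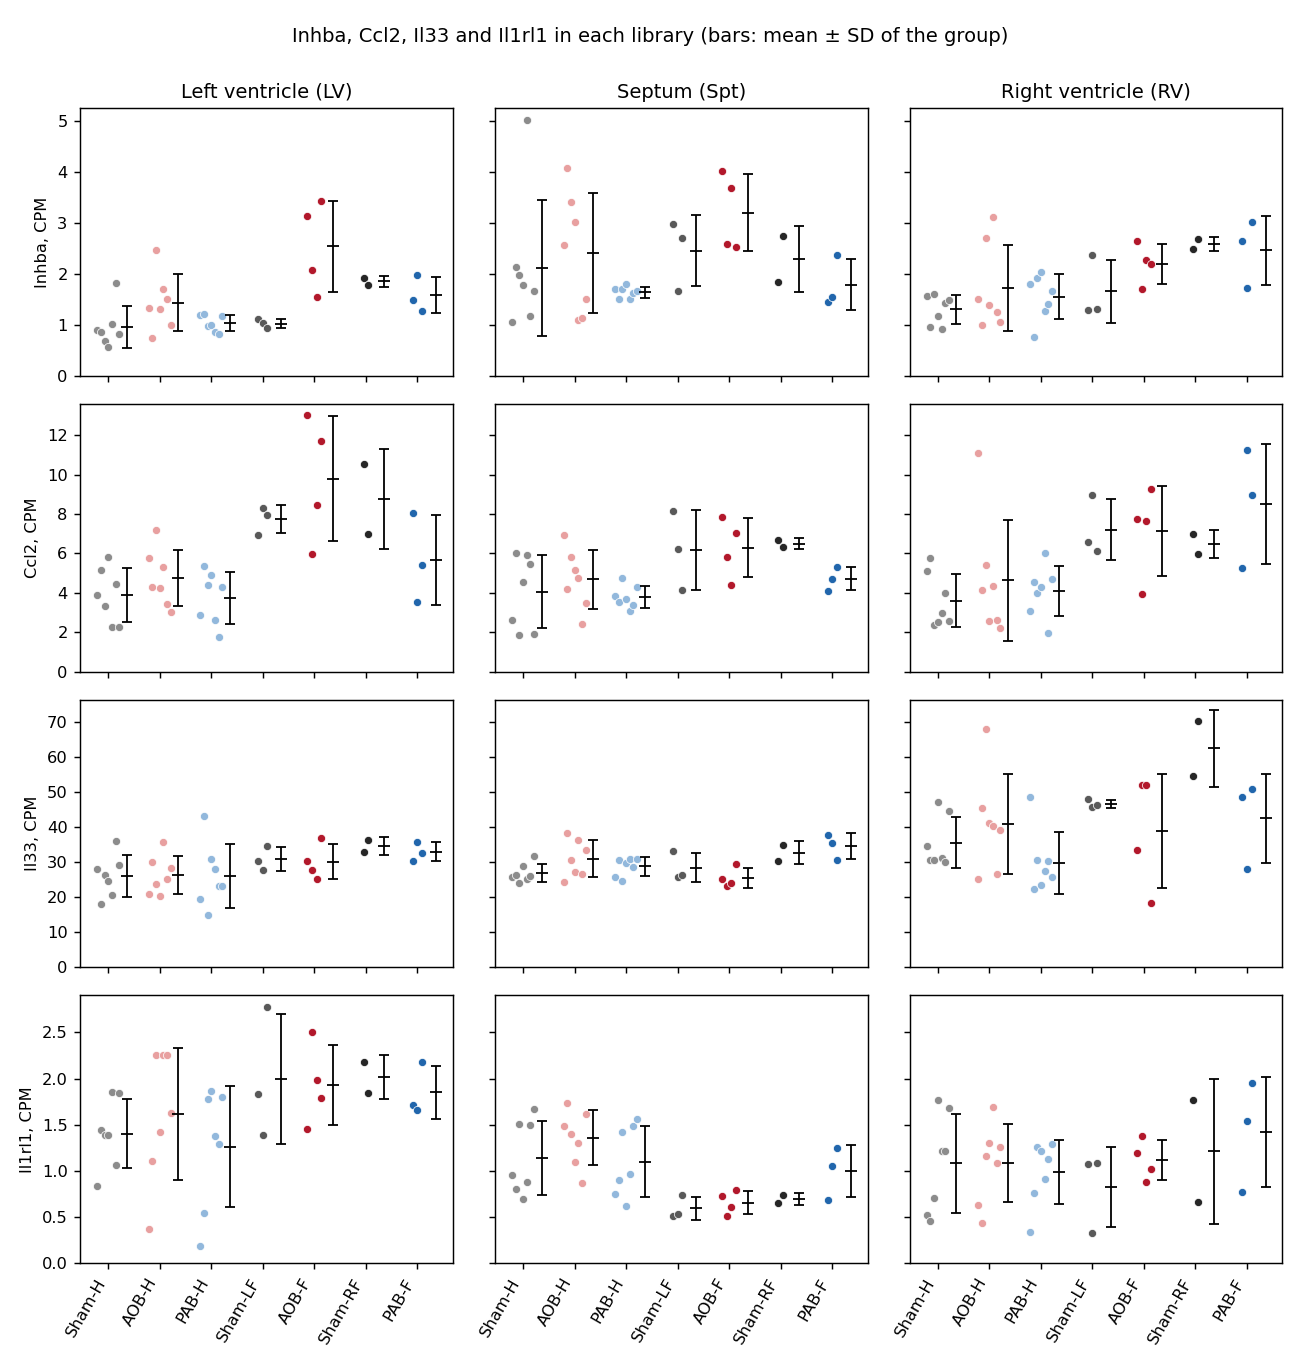
Levels (CPM) of Inhba, Ccl2, Il33 and Il1rl1 in every library, by condition and chamber, with a bar at each group mean. Ccl2 was higher in both older sham groups than in Sham-H, and Il33 was highest in the RV.

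Il33 was the member with the highest FPKM, and none of its differences was called. In Sham-H its level was 35.6 ± 7.31 CPM in the RV, 27.0 ± 2.61 CPM in the septum and 26.2 ± 5.95 CPM in the LV (n = 7 each). The RV values ran from 30.0 to 47.2 CPM with a median of 31.3, and the LV values from 18.1 to 36.2 CPM with a median of 26.5, so the groups overlapped. Within animals the RV exceeded the LV in 27 of 33, and in 6 of 7 in Sham-H, the septum exceeded the RV in 6 of 33, and in 0 of the 7 Sham-H animals.

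The RV exceeded the LV in Sham-H by 0.44 ± 0.17 (unadjusted p = 0.0116, adjusted p = 0.746), with 6.05% of genes under an unadjusted p of 0.05 and 0% called. The septum differed from the RV by -0.40 ± 0.17 (unadjusted p = 0.0222). Without the 3 animals the RV to LV difference was 0.58 ± 0.17 with an adjusted p of 0.071, and as a mean over the 3 sham groups it was 0.63 ± 0.15 with an adjusted p of 0.00357. Vwf, the endothelial von Willebrand factor, was also higher in the RV of Sham-H than in the LV, by 0.32 ± 0.15, but the sum of 5 endothelial markers that includes it had a median of 935 CPM in the RV and 950 CPM in the LV. The genes nearest to Il33 over the 99 libraries were Cdh11 (a cadherin of mesenchymal cells), with r = 0.82, Vwf, with r = 0.78, and Cgnl1 (a junction protein), with r = 0.77.

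In the RV of the older shams the mean of Il33 was above that of Sham-H. The 3 Sham-LF animals were at 48.0, 45.8 and 46.2 CPM and the 2 Sham-RF animals at 54.7 and 70.3 CPM. Of these 5, 3 were above all 7 younger animals. They exceeded Sham-H by 0.61 ± 0.23 on the log2 scale (unadjusted p = 0.0145, adjusted p = 0.346), and it was 0.57 ± 0.24 without the 3 animals. Vwf was higher there by 0.67 ± 0.21, while the endothelial sum was 877 to 976 CPM in Sham-LF and 1189 to 1208 CPM in Sham-RF, against a median of 935 CPM in Sham-H. After banding, the AOB-F RV libraries were at 33.6, 52.0, 52.2 and 18.4 CPM, on both sides of the Sham-LF range. The PAB-F RV, at 48.7, 28.1 and 50.9 CPM, lay below both Sham-RF values, with a log2 difference of -0.56 ± 0.36 (unadjusted p = 0.129). In the AOB-H septum it was higher by 0.20 ± 0.10 (unadjusted p = 0.0409, adjusted p = 0.298).

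Il1rl1, which encodes the receptor for Il33, was measured on 3 to 58 counts per library. Over the 99 libraries the correlation of the 2 genes was -0.03. Il1rl1 was lowest in the septum of the older animals, at 0.509, 0.528 and 0.740 CPM in Sham-LF and 0.652 and 0.738 CPM in Sham-RF. The 7 Sham-H septa ran from 0.691 to 1.67 CPM with a median of 0.953, and 3 of the 5 older ones were below all of them. The log2 difference was -0.84 ± 0.27 (unadjusted p = 0.00407, adjusted p = 0.133).

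In the LV the same comparison gave 0.50 ± 0.35 and in the RV -0.12, neither of them called. The LV held the highest level, 2.01 ± 0.24 CPM (n = 2) in Sham-RF and 2.00 ± 0.707 CPM (n = 3) in Sham-LF. Among the failing groups no Il1rl1 difference from sham had an unadjusted p under 0.05, and AOB-F and Sham-LF overlapped in the septum at 0.508 to 0.790 and 0.509 to 0.740 CPM. Within animals, Il1rl1 was higher in the RV than in the LV in 5 of 33 and higher in the septum than in the LV in 8 of 33.

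The 3 genes whose level was most like that of Il1rl1 were Pde3b (a phosphodiesterase), with r = 0.75, and the macrophage genes Cd163 and Cd4, with r = 0.74 and 0.73. Cd163 differed by -0.43 ± 0.17 between older and younger septa. Its part in the Il1rl1 difference was not tested. At the H stage the median of Il1rl1 in the LV was 0.689 CPM (0.189 to 1.44, n = 6) in the first series of library numbers and 1.77 and 1.72 CPM in the others. In the RV it was 0.489 CPM against 1.22 and 1.24 CPM, so the series moved with this gene. Septal libraries of the older animals belonged to a single series, and within it the age difference was -0.94 ± 0.30.

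Over the 22 comparisons, 143 values of members were tested. By edgeR, 1 of them was called, and 21 fell below 0.05 before adjustment, where the share of all genes below 0.05 ran from 0.937% to 16.8% over the 22 comparisons. The values not yet given are Gdf15 in the septum of the older shams, higher than in Sham-H by 0.81 ± 0.37 (adjusted p = 0.266), and Inhba in the RV of the older shams, higher by 0.66 ± 0.27 (adjusted p = 0.379). DESeq2 called 2 members in the AOB-F LV, Gdf15 and Inhba, 1 in the AOB-F septum (Gdf15) and 1 between septum and LV of Sham-H (Inhba), and 0 in each of the other comparisons. Among members, the level of Gdf15 correlated with that of Ccl2 at r = 0.66 and with that of Inhba at r = 0.55 over the 99 libraries. After removing group means these were 0.58 and 0.37.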

How the data were processed

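RNA was measured by single-end sequencing in 99 libraries of rat LV, Spt and RV. The authors trimmed reads with Trim Galore, aligned them with STAR to Rnor6.0 and counted them per gene with featureCounts, and the deposited table holds these raw counts. Whether counting used strand is not given in the sources used here. The deposited normalized signal is the count divided by 1 DESeq2 size factor per library, and the deposited FPKM is this value divided by a constant per gene. FPKM was used here to compare levels between genes.

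From the counts, edgeR 4.0.16 (R 4.3.3) was run per chamber on its 33 libraries with 7 conditions, and between chambers on all 99, with filterByExpr at a minimum count of 10, TMM and the quasi-likelihood test. P-values were adjusted by Benjamini-Hochberg over all genes tested. DESeq2 1.42.0 and the other alternatives are described at the end. Members below the filter were tested on CPM, and on log2 of CPM plus 0.5, by exact permutation in Python 3.11.15 with scipy 1.17.1. The code was tested on simulated data. The depth of 12.1 M to 24.2 M reads limits genes of a few counts, for which counting error is large.

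The 9 members, the gene lists and the rule for named genes were chosen with earlier results of these data known. All members are described. Of each list, up to 4 genes that passed the test were named or, where none passed, the 1 or 2 with the lowest p. Marker genes (Csf1r, Myh6, Cd163, Vwf) were named after their values were seen. For each tested member up to 3 genes with the highest Pearson's r were named, leaving out symbols that begin with LOC, RGD, AABR or Mir. RV samples carry a left ventricular tissue entry in the labels, and their titles were used. The exchange of 2 septal AOB-F columns in the study's sample sheet was not adopted, and it leaves group values as they are. Chambers pair by animal, with correlations of deviations of -0.10 to 0.81 between RV and LV in Sham-H. The series of library numbers (1 to 3) was read from the library numbers and is not known to be a batch. Columns left unused numbered 0.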

Additional observations from a re-analysis of the deposited data

Results flagged for a closer look

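Within the groups of 4 to 10 libraries, 84 sets of values of members were examined for a library that stood far from the others by Dixon's ratio, of which chance gives about 1 in 20, or 4.2, and 4 were found. Gdf15 was at 5.637 CPM (105 counts) in AOB-H replicate 3 in the LV, where the next library was at 1.598. Fgf21 was at 0.7021 CPM (12 counts) in Sham-H replicate 1 in the RV, where the next was at 0.3465. Il33 was at 48.57 CPM (728 counts) in PAB-H replicate 1 in the RV, where the next was at 30.57. Inhba was at 5.029 CPM (63 counts) in Sham-H replicate 5 in the septum, where the next was at 2.132.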

How the results depend on the processing

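In the AOB-F LV, where 1 member was called, 2 were called with DESeq2 or with the library series as a covariate, and 0 with no filter on low counts, with only the groups compared, with a replicate block, or within library series 2. Leaving out 1 animal gave 0 to 2, with 0 without AOB-F replicate 1 or 4 or any Sham-LF replicate and 2 without AOB-F replicate 2 or 3. In the AOB-F septum the count went from 0 to 1 (Gdf15) with DESeq2 and with the replicate block, and leaving out 1 animal gave 0 to 1. For older against younger shams in the LV the replicate block called 2 (Ccl2 and Il1rl1). Between chambers, the mean over the 3 sham groups called 2 for RV against LV, 2 for Spt against LV and 1 for Spt against RV. For Spt against LV, DESeq2 called 1, as did leaving out the 3 animals that went against their chamber labels, and leaving out 1 animal gave 0 to 1, with 1 without Sham-H replicate 6.

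Among the values followed one by one, directions turned for Gdf15 in the PAB-F LV (0.02), at -0.15 with the replicate block and -0.42 to 0.21 without 1 animal, Inhba in the AOB-H LV, at -0.051 within library series 3, and Gdf15 in the RV within series 3, at -0.76 in AOB-H and -0.39 in PAB-H. Among all member values, 1 of 21 with an unadjusted p under 0.05 and 60 of 122 with a higher p had another sign under at least 1 alternative. The causes were not tested. The check did not show that replicate numbers pair the animals, since same-numbered deviations correlated at -0.03 to 0.12 in the AOB-F and Sham-LF LV, and at -0.12 to 0.80 in the AOB-H and 0.04 to 0.81 in the PAB-H and Sham-H LV. Same-numbered H-stage LV and RV libraries also share the library series, so the replicate block carries it. Blocking the chamber comparisons by animal changed no call.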
